A study of Mus musculus with 10 samples.

Results

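Tumours of TH-MYCN mice taken 24 h into a combination treatment were compared with untreated tumours, using 6 of the 10 libraries of the series. The 3 treated libraries carry the numbers 2, 3 and 4 in the labels and the 3 untreated libraries the numbers 1, 2 and 3. The 4 libraries of the 5-day group were kept out of the fit so that their spread does not enter. TH-MYCN mice carry a human MYCN transgene under a tyrosine hydroxylase promoter and develop neuroblastoma, a tumour of the sympathetic nervous system. All groups carry the transgene, and the labels give neither the age of the animals nor a vehicle for the untreated group. The labels name MLN8237, known as alisertib, which inhibits the kinase Aurora-A. They also name AZD6738, known as ceralasertib, which inhibits the checkpoint kinase ATR. The sample titles call the treatment a combination, whereas the design text joins the 2 agents with "or", and no dose is given. Whether each library stands for its own mouse is not in the labels, and p-values here measure only the spread between these libraries, which may be technical.

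Aurora-A drives centrosome maturation and assembly of the mitotic spindle, and in neuroblastoma it binds the MYCN protein and shields it from degradation. ATR senses stalled replication forks and, through the kinase CHK1, restrains new origin firing and entry into mitosis. Cells stopped or delayed in mitosis, or carrying DNA damage, are known to change the transcripts of late cell cycle genes and of p53 targets. These groups of genes are described first, but all gene lists were chosen with earlier results of these data known.

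Each library held 5576926 to 5682379 counts (1.89% apart) and 19939 to 20749 genes with at least 1 count. A count of 0 in a library allows a level of up to 0.528 to 0.538 CPM (counts relative to the library total), which is 3 counts, for counting error only. The labelled tissue was checked with 11 neuroblastoma markers such as Th, which summed to 2615 to 3182 CPM in untreated and 2335 to 2709 CPM in 24 h libraries. The libraries also differed in ways that the groups do not explain. Untreated library 3 held markers of other tissues, with 133 CPM of kidney tubule, 78.7 CPM of hepatocyte and 906 CPM of adipocyte markers, against at most 2.88, 6.18 and 328 CPM in any other library. Untreated library 2 had the Y-linked gene Ddx3y at 3.88 CPM, against 65.1 to 87.8 CPM in the other 5. In 24 h library 3, erythroid markers were lowest (179 CPM, against 728 to 1770 CPM) and transcripts of the mitochondrial genome highest (4.52% of counts, against 2.1% to 3.70%). Of 999 distinct genes in 54 lists used below, 54 had 0 counts in all 6 libraries. They include B2m and Cox4i1, which most cells transcribe, so a count of 0 is not read here as absence of the transcript.

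Few genes changed past the threshold after 24 h. Of 14283 genes tested, 7 rose (0.0490%) and 0 fell (0%), by edgeR's quasi-likelihood test with a Benjamini-Hochberg adjusted p under 0.05. The 7 were Gpnmb, Sesn2, Psrc1, Mmp12, Cep55, Pif1 and Trp53inp1. At an unadjusted p under 0.05, 730 genes were higher (5.11%) and 462 lower (3.23%). All 3 treated libraries lay above all 3 untreated ones for 1107 genes (7.75%) and below them for 899 (6.29%). Over all tested genes 50.2% had a fold change above 0 and 49.8% below, with a median log2 fold change of 0.00. DESeq2 called 92 genes higher (0.670%) and 22 lower (0.160%), including all 7 above. The number called by edgeR turned on single libraries. It was 1 (Mmp12) without untreated library 1, 0 without untreated library 2, 2 without untreated library 3 (Gpnmb, and Spp1 as a new call), 1 (Sesn2) without 24 h library 3 and 0 without 24 h library 4. Without 24 h library 2, 16 genes were called higher, all 7 among them, and 1 lower. The direction of all 7 genes was kept in each of the 16 alternatives tried.

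**Figure D1:**
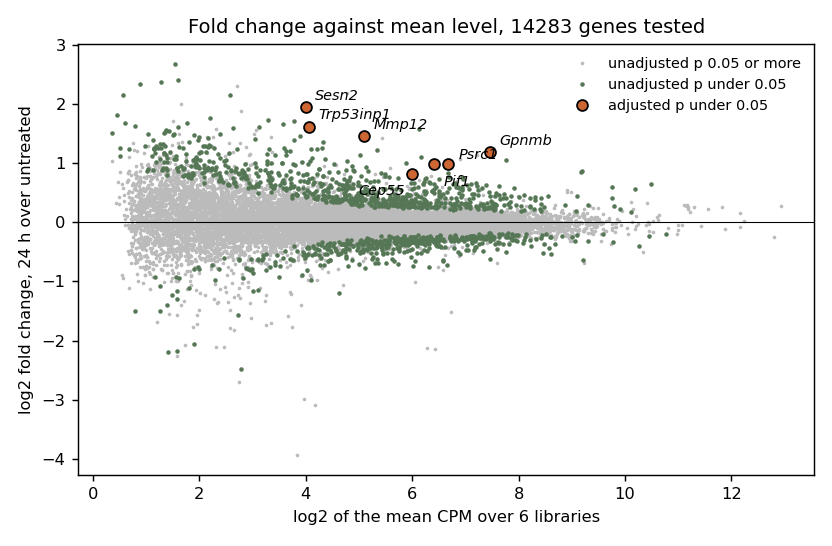
Log2 fold change (24 h over untreated) of 14283 tested genes against the log2 of their mean CPM over 6 libraries, with genes at an unadjusted p under 0.05 in green and the 7 genes with an adjusted p under 0.05 as large labelled points. The called genes lie at mean levels of middle height, all above 0, and no gene below 0 was called.

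Sesn2 and Trp53inp1, both transcribed under p53 and in other stress responses, had the largest fold changes of the 7. Sestrin 2, the product of Sesn2, restrains the growth kinase mTORC1. Sesn2 was at 7.16, 6.35 and 6.26 CPM in untreated libraries 1, 2 and 3 and at 27.5, 19.7 and 29.4 CPM in 24 h libraries 2, 3 and 4. The lowest treated library was well above the highest untreated one, and the log2 fold change was 1.95 ± 0.21 (SE; edgeR adjusted p = 0.0183). Trp53inp1, whose product promotes cell cycle arrest, cell death and autophagy, was at 7.16, 10.1 and 7.33 CPM untreated and at 20.1, 26.4 and 29.0 CPM at 24 h. Its groups did not overlap either, with a log2 fold change of 1.62 ± 0.22 (edgeR adjusted p = 0.0382).

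Most other p53 targets were higher too, with smaller differences. Of 36 tested members of a list of 42, Sesn2 and Trp53inp1 included, 26 were higher and 10 lower. The median log2 fold change was 0.25, against 0.00 for all tested genes. At an unadjusted p under 0.05, 16 were higher and 2 lower, against 5.11% and 3.23% of all tested genes. The first count was 9 without untreated library 3 and 10 without 24 h library 4. Bbc3, which encodes the pro-apoptotic protein PUMA, was at 36.4, 27.2 and 34.3 CPM untreated and 56.3, 50.6 and 66.3 CPM at 24 h. This gene did not pass in edgeR (log2 fold change 0.82 ± 0.15, adjusted p = 0.135) and did in DESeq2 (adjusted p = 0.00404). Phlda3, an inhibitor of AKT signalling, was at 9.49, 15.4 and 10.4 CPM untreated and at 20.4, 21.5 and 42.0 CPM at 24 h, without overlap and with library 4 highest. Cdkn1a, the CDK inhibitor p21, was at 10.4, 27.4 and 15 CPM untreated and at 33.8, 40.6 and 71.9 CPM at 24 h. All treated libraries of Cdkn1a were above the untreated ones, but with a wide spread in both groups (log2 fold change 1.47 ± 0.45, edgeR adjusted p = 0.468, DESeq2 adjusted p = 0.00404). Mdm2, which marks p53 for degradation and is its target, differed little, at 96.4 to 106 CPM untreated and 114 to 119 CPM at 24 h (log2 fold change 0.21 ± 0.09). Btg2, an antiproliferative cofactor, differed by 0.48 ± 0.14. Of the pro-apoptotic BCL2 family, Bbc3 included, 4 of 8 tested members were higher and 4 lower (6 higher without untreated library 1). The 3 tested anti-apoptotic members had a median of -0.14, and of the 4 tested without untreated library 2 or without 24 h library 2, 2 were higher and 2 lower. None of these passed in edgeR.

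**Figure D2:**
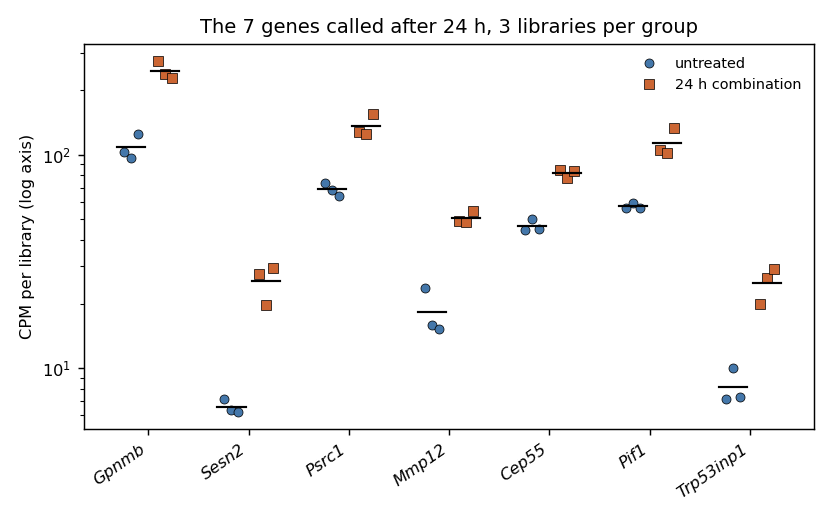
CPM of the 7 called genes in each library, on a log axis, with untreated libraries as circles, 24 h libraries as squares and the mean of each group as a bar. For every gene the lowest square lies above the highest circle, and the gap is widest for Sesn2, at 19.7 against 7.16 CPM.

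Psrc1, Cep55 and Pif1, 3 genes expressed late in the cell cycle, also rose. Psrc1 encodes a microtubule-binding protein of the mitotic spindle and was at 74.0, 68.3 and 63.7 CPM untreated and 128, 125 and 155 CPM at 24 h (log2 fold change 0.98 ± 0.12, edgeR adjusted p = 0.0247). Cep55, a midbody protein needed for the final cut between daughter cells, was at 44.2, 49.8 and 44.9 CPM untreated and 84.5, 77.9 and 83.4 CPM at 24 h (0.82 ± 0.10, edgeR adjusted p = 0.0247). Pif1, a DNA helicase that unwinds G-quadruplexes at replication forks, was at 56.1, 59.3 and 56.3 CPM untreated and 105, 101 and 134 CPM at 24 h (0.99 ± 0.12, edgeR adjusted p = 0.0247). In all 3 genes the untreated libraries lay close together and the treated ones were higher in each case, with library 4 highest for Psrc1 and Pif1.

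Many late cell cycle promoters carry a cell cycle genes homology region (CHR), the element to which the MuvB-containing complexes bind that repress these genes in G1 and activate them in G2. The promoter windows of Cep55, Psrc1 and Aurka are shown because these genes were among the higher mitotic genes and each holds this element near its start. They are RefSeq windows of build GRCm38.p6, from 250 bases before to 50 bases after the annotated start, written 5′ to 3′ in the direction of the gene, with the CHR match in capitals. Cep55 lies at chr19:38054734-38055033 (+ strand, the first of 2 windows), Psrc1 at chr3:108383554-108383853 (+ strand, the first of 2 windows) and Aurka at chr2:172370521-172370820 (- strand).
Cep55: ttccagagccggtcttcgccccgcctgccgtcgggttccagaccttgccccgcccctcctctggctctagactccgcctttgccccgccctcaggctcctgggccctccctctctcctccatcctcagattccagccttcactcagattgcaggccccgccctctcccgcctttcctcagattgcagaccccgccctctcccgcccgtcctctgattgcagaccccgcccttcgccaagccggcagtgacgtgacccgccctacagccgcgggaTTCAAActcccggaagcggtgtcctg
Psrc1: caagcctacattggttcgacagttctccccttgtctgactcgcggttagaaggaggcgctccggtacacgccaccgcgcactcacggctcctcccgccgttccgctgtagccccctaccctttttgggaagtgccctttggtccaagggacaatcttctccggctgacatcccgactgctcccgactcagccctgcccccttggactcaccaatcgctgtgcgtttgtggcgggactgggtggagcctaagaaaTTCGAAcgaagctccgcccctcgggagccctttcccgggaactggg
Aurka: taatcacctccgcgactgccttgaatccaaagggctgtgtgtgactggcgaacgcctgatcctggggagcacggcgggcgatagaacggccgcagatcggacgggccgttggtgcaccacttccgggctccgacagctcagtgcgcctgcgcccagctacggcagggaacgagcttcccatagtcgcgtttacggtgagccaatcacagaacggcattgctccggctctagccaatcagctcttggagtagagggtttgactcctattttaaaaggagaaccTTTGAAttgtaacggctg
The capitals start 24, 4 and 32 bases after the start site in Cep55, Psrc1 and Aurka, and TTCAAA in Cep55 is TTTGAA on the other strand. The motif was searched as TTTGAA or TTCGAA on both strands. A window with it was found for 24 of 30 spindle and cytokinesis genes in the promoter table (80%), for 9 of 15 mitotic entry genes (60%) and for 19 of 32 kinetochore genes (59.4%). Of the replication genes 9 of 35 had it (25.7%), and of all tested genes with a window, 1607 of 9806 (16.4%), while it was in 19.2% of all 32851 windows. A match is a description of the letters and not of binding. Outside the 3 mitotic lists, 1555 tested genes had the motif, and 10.7% of them lay above without overlap, against 7.60% of the 8199 genes without the motif.

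Genes of mitosis had higher values at 24 h. All 32 tested genes of the spindle and cytokinesis list were higher. Of these 25 were at an unadjusted p under 0.05, against 5.11% of all tested genes, and the median log2 fold change was 0.40. This median was 0.33 to 0.49 when each library was left out in turn. Of the mitotic entry list 20 of 22 tested members were higher (13 at an unadjusted p under 0.05, median 0.31), and of the kinetochore and spindle checkpoint list 36 of 39 (15, median 0.20, and 0.13 without untreated library 3). DESeq2 called 9, 5 and 6 members of the 3 lists higher and 0 lower, against 0.670% and 0.160% of all genes it tested. Summed over the spindle list, untreated libraries 1, 2 and 3 held 3773, 3926 and 3596 CPM and 24 h libraries 2, 3 and 4 held 5080, 4284 and 5285 CPM. The treated sums were above the untreated ones, with library 3 lowest among them. In the mitotic entry and kinetochore sums library 3 was likewise the lowest treated library, again above all untreated ones.

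Among kinases and regulators of mitotic entry, Aurka, the target of MLN8237, was at 128, 141 and 126 CPM untreated and at 199, 178 and 233 CPM at 24 h. The log2 fold change was 0.63 ± 0.11 (edgeR adjusted p = 0.142, DESeq2 adjusted p = 0.0017), with no overlap. Bora, which activates Aurora-A toward PLK1, was at 83.5 to 107 CPM untreated and 138 to 164 CPM at 24 h. Gtse1, a microtubule-associated protein that also restrains p53 in G2, was at 85.6, 99.2 and 94.2 CPM untreated and at 150, 133 and 178 CPM at 24 h (0.72 ± 0.12, edgeR adjusted p = 0.102). Ccnf, the F-box cyclin of G2, differed by 0.60 ± 0.12. Aurkb, the Aurora kinase of the chromosomal passenger complex, overlapped between groups, at 122, 112 and 101 CPM untreated and 151, 114 and 121 CPM at 24 h (0.20 ± 0.12). The difference between the 2 Aurora kinases was not tested.

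At the centromere, Cenpl, a subunit of the constitutive kinetochore, was at 23.8, 17.6 and 18.4 CPM untreated and at 38.4, 38.8 and 38.7 CPM at 24 h. The treated libraries agreed closely, and the gene came near the threshold (0.95 ± 0.15, edgeR adjusted p = 0.0871). The kinetochore motor Cenpe (0.58 ± 0.11) and Cdc20, the activator of the anaphase-promoting complex (0.41 ± 0.09), were higher without overlap, neither past the threshold in edgeR. On the spindle, the minus-end motor Kifc1 was at 160 to 172 CPM untreated and 212 to 244 CPM at 24 h. Its near-identical copy Kifc5b had a similar difference (0.58 ± 0.09 against 0.47 ± 0.09), but reads of the pair may be split between them and both values are uncertain. Depdc1b, of the same list, differed by 0.56 ± 0.11.

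Genes of DNA replication and of the G1/S transition lay close to the tested genes at large. Of 43 tested replication genes 14 were higher and 29 lower, with a median of -0.05. At an unadjusted p under 0.05, 1 was higher and 2 lower, against 5.11% and 3.23% of all tested genes. Without 24 h library 2, 8 were lower at that p and the median was -0.09. Cdc6, which loads the MCM helicase at origins, was at 46.4, 57.4 and 43.8 CPM untreated and at 34.8, 29.6 and 31.9 CPM at 24 h (-0.61 ± 0.14, edgeR adjusted p = 0.213). Dbf4, the activating subunit of the kinase CDC7, went the other way, at 87.4 to 95.3 CPM untreated and 120 to 123 CPM at 24 h (0.41 ± 0.09). These were the 2 replication genes with the smallest p, and they lay on opposite sides. Nucleotide supply genes were lower in 12 of 15, with a median of -0.08 and 1 lower at an unadjusted p under 0.05. Without 24 h library 2 that median was -0.14 and 5 were lower at that p. G1/S regulators were lower in 15 of 21, with a median of -0.11, and -0.17 without untreated library 3. Core histone genes of the replication clusters were higher in 14 of 17 tested members with a median of 0.45. Of these 7 were higher at an unadjusted p under 0.05, against 5.11% of all tested genes. The count of 7 was 3 without untreated library 3 or without 24 h library 4. Only 17 of 55 members were tested. Histone transcripts mostly lack a poly(A) tail and have near-identical copies, so these values are uncertain.

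The ATR pathway itself showed small differences. Atr was at 45.9, 60.5 and 47.2 CPM untreated and at 55.1, 39.0 and 47.2 CPM at 24 h, so the groups overlapped (-0.12 ± 0.15). Chek1, which encodes CHK1, was at 55.2, 62.8 and 56.3 CPM untreated and at 53.7, 52.4 and 43.1 CPM at 24 h, below all untreated libraries by a small margin (-0.22 ± 0.12, edgeR adjusted p = 0.647). Of 13 pathway genes 5 were higher and 8 lower (median -0.12, and -0.01 without 24 h library 3). Rad9a, of the clamp that helps activate ATR, was higher by 0.41 ± 0.14. Chek2, the checkpoint kinase downstream of ATM, was higher without overlap, at 29.2, 22.8 and 25 CPM untreated and 49.1, 43.6 and 46.8 CPM at 24 h (0.86 ± 0.13, edgeR adjusted p = 0.0871, DESeq2 adjusted p = 0.002). Of the 16 tested genes of its list of ATM signalling and end joining, 6 were higher and 10 lower, with a median of -0.06.

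MYCN and the identity of the tumour cells differed little at the transcript level. Mouse Mycn was at 81.5, 113 and 103 CPM untreated and at 108, 90.8 and 86.3 CPM at 24 h (-0.06 ± 0.14). The counts are assigned to mouse genes, and how much of the human transgene is counted as Mycn was not tested. Myc was low in all libraries (2.82 to 6.08 CPM untreated, 2.46 to 3.06 CPM at 24 h). Max, the partner of both proteins, was at 96.9 to 105 CPM untreated and 79.1 to 95.7 CPM at 24 h (-0.20 ± 0.10). Th, the first enzyme of catecholamine synthesis, was at 81.4 to 126 CPM untreated and at 92.4, 88.3 and 206 CPM at 24 h, high in library 4 only. Of the 14 adrenergic core factors tested, 7 were higher and 7 lower. Among single genes of neural development with the smallest p, Gfra3, a receptor for artemin, was at 47.1, 29.7 and 26.3 CPM untreated and at 13.7, 13.3 and 18.0 CPM at 24 h (-1.19 ± 0.24, edgeR adjusted p = 0.199, DESeq2 adjusted p = 0.00286). The receptor kinases Ror1 (-0.90 ± 0.18) and Epha7 (-0.68 ± 0.15) were lower without overlap as well.

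**Figure D3:**
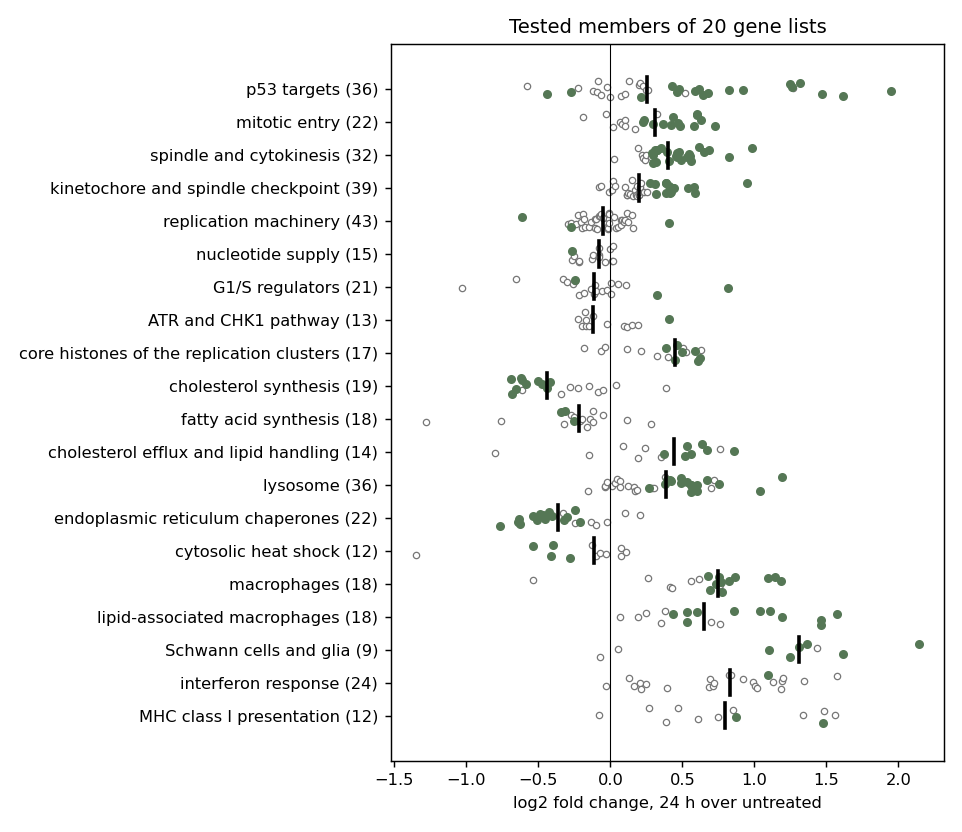
Log2 fold change (24 h over untreated) of the tested members of 20 gene lists, with the number tested in brackets, filled points for an unadjusted p under 0.05, open points for the others and a bar at each median. The spindle list lies wholly above 0 (median 0.40), the cholesterol synthesis and endoplasmic reticulum chaperone lists lie mostly below it (medians -0.44 and -0.37), and the interferon and MHC class I lists are high and wide with few filled points.

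Genes of cholesterol synthesis had lower values at 24 h. When cells hold enough sterol, the transcription factor SREBP2 is retained in the endoplasmic reticulum and transcription of this pathway falls. Of 19 tested members 17 were lower and 2 higher, 10 of them lower at an unadjusted p under 0.05 (against 3.23% of all tested genes). Below all untreated libraries lay 11 (against 6.29%). The median was -0.44, and -0.55 to -0.33 when each library was left out in turn. Cyp51, the lanosterol demethylase, was at 109, 140 and 103 CPM untreated and at 82.7, 67.3 and 73.3 CPM at 24 h (-0.66 ± 0.14, edgeR adjusted p = 0.201, DESeq2 adjusted p = 0.00746). Hmgcs1, the synthase that makes HMG-CoA, was at 129, 159 and 119 CPM untreated and at 95.9, 94.8 and 97.3 CPM at 24 h (-0.50 ± 0.12). In both genes untreated library 2 was highest and the groups did not overlap. Sqle, which makes the squalene epoxide, differed by -0.48 ± 0.13. Aacs, which feeds ketone bodies into sterol synthesis, was at 35.8 to 48.8 CPM untreated and 24.1 to 28.7 CPM at 24 h. Stard4, a carrier of cholesterol, was at 58.6 to 66.9 CPM untreated and 32.3 to 48.7 CPM at 24 h. It belongs to the list of sterol sensing and LDL uptake, in which 5 of 11 tested members were higher and 6 lower, with a median of -0.02. That median was 0.03 without 24 h library 3, 0.04 without 24 h library 4 and -0.18 without 24 h library 2. Fatty acid synthesis genes were lower in 16 of 18, with a median of -0.22, but in 10 of 18 with a median of -0.09 without untreated library 3, the library with fat cell transcripts.

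The Hmgcs1 promoter is shown because it holds a sterol regulatory element core within 250 bases of the start. It is the RefSeq window chr13:119690101-119690400 (+ strand) of build GRCm38.p6, with the match, searched as TCACNCCAC on both strands, in capitals 137 bases before the start.
Hmgcs1: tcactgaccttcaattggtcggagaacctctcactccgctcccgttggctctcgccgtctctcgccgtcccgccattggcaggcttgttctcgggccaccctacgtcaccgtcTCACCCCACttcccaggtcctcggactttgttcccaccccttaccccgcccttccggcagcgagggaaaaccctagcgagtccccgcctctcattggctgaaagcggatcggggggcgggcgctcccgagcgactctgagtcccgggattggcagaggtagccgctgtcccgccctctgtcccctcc
Among cholesterol synthesis genes in the table it was the only window with these letters (1 of 15, or 6.67%), against 1.43% of all tested genes. Of the 140 tested genes with these letters 77 were higher and 63 lower, with a median of 0.02. A CCAAT box (CCAAT on either strand) is bound by the partner factor NF-Y. It was in 14 of 15 cholesterol synthesis genes (93.3%), against 43.0% of tested genes. The share was also 93.3% in mitotic entry genes, most of which were higher, and 89.5% in endoplasmic reticulum chaperone genes.

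Chaperones of the endoplasmic reticulum were lower too. These proteins fold secreted and membrane proteins, and their genes are induced together by the unfolded protein response through ATF6 and XBP1. Of 22 tested members 20 were lower and 2 higher, with a median of -0.37 (-0.49 to -0.31 when each library was left out). Lower at an unadjusted p under 0.05 were 15, against 3.23% of all tested genes. The count of 15 was 9 without untreated library 2 or 24 h library 4. Hyou1, a large chaperone of the HSP70 class, was at 208, 284 and 272 CPM untreated and at 191, 179 and 168 CPM at 24 h (-0.51 ± 0.12, edgeR adjusted p = 0.235, DESeq2 adjusted p = 0.0233). Dnajc3, a co-chaperone of BiP and an inhibitor of the kinase PERK, was at 72.2, 107 and 121 CPM untreated and at 50.9, 66.1 and 59.6 CPM at 24 h (-0.76 ± 0.19). The disulphide isomerase Pdia3 was at 381 to 475 CPM untreated and 301 to 355 CPM at 24 h, and Sdf2l1 at 44.1 to 69.2 CPM and 36.6 to 41.5 CPM. In all 4 genes untreated library 1 was the lowest of its group and closest to the treated libraries. In the ATF4 arm of the same stress response 19 of 33 tested members were higher and 14 lower (median 0.01). This list changed sign without untreated library 2, with 9 higher, 24 lower and a median of -0.08. It also did without 24 h library 2, with 12 higher, 21 lower and a median of -0.07. With no filter on low counts 16 were higher and 18 lower. Of 12 cytosolic heat shock genes 9 were lower (median -0.12), among them the abundant chaperone Hspa8 (-0.40 ± 0.10). The median was -0.28 without untreated library 1 and -0.18 without 24 h library 2. At an unadjusted p under 0.05, 4 were lower, against 3.23% of all tested genes. The count of 4 was 2 without untreated library 2 or 3 or without 24 h library 3 or 4. Chordc1, a co-chaperone of HSP90, was at 93.9 to 146 CPM untreated and 71.7 to 83.6 CPM at 24 h.

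Promoters of Hspa5 and Creld2, chosen after their values were seen, are shown because they hold a full endoplasmic reticulum stress element, in opposite orientations. Hspa5 encodes BiP, the main chaperone of the compartment, and Creld2 a secreted stress protein. The element was searched as CCAAT, then 9 bases of any kind, then CCACG, on both strands, and it contains a CCAAT box by construction. Hspa5 is at chr2:34771840-34772139 (+ strand) and Creld2 at chr15:88819396-88819695 (+ strand) of build GRCm38.p6, with the element in capitals 65 and 126 bases before the start.
Hspa5: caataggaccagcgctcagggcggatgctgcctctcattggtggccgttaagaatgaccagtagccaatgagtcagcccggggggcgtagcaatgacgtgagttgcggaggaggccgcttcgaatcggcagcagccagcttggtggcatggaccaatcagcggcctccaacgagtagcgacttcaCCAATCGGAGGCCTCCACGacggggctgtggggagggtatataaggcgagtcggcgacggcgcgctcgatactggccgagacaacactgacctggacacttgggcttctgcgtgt
Creld2: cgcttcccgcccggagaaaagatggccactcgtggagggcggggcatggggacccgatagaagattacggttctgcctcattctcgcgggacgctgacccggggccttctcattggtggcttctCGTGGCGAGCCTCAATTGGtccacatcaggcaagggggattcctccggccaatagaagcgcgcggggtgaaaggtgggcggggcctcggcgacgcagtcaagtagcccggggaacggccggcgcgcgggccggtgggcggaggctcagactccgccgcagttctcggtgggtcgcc
The element was in 8 of 19 chaperone genes of the table (42.1%), against 17 of 9806 tested genes (0.173%). These 8 were all lower at 24 h, 7 at an unadjusted p under 0.05, with a median of -0.43. In the whole chaperone list, with or without the element, 20 of 22 tested members were lower, 15 at that p. The share lower at that p was 3.23% of all tested genes. The 9 tested genes with the element outside this list went both ways, 5 higher and 4 lower, with a median of 0.11. Hspa5 was at 496, 762 and 902 CPM untreated and at 449, 513 and 421 CPM at 24 h. Here 24 h library 3 exceeded untreated library 1, so the groups overlapped (-0.64 ± 0.21, edgeR adjusted p = 0.468, DESeq2 adjusted p = 0.0245).

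Gpnmb and Mmp12, the last of the 7 called genes, are known from macrophages. Gpnmb, a transmembrane glycoprotein of lysosomes and phagosomes, was at 103, 96.5 and 125 CPM untreated and at 273, 238 and 228 CPM at 24 h (1.19 ± 0.12, edgeR adjusted p = 0.0183). Mmp12, the macrophage elastase, was at 23.8, 15.9 and 15.2 CPM untreated and at 48.7, 48.1 and 54.2 CPM at 24 h (1.46 ± 0.17, edgeR adjusted p = 0.0247). Both genes separated the groups by a wide margin, and the treated libraries lay close together.

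Both belong to a list of 18 genes of lipid-associated macrophages, which clear cell debris and lipid. All 18 were higher, with a median of 0.65 (0.52 to 0.88 when each library was left out). Higher at an unadjusted p under 0.05 were 11, against 5.11% of all tested genes. Spp1, the secreted protein osteopontin, was at 33.0, 27.2 and 45.6 CPM untreated and at 114, 82.2 and 118 CPM at 24 h (1.57 ± 0.21, edgeR adjusted p = 0.0871, DESeq2 adjusted p = 8.63e-11). Trem2, the lipid receptor that drives this state, was at 8.96, 5.47 and 9.30 CPM untreated and at 17.9, 22.6 and 25 CPM at 24 h (1.47 ± 0.24, edgeR adjusted p = 0.102). The groups did not overlap in either gene. DESeq2 called 8 of the 18 higher, against 0.670% of all genes it tested.

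General macrophage markers were higher in 17 of 18 tested members, with a median of 0.74. Higher at an unadjusted p under 0.05 were 11 (against 5.11% of all tested genes). This count was 7 without untreated library 2 and 6 without 24 h library 3 or 24 h library 4. Msr1, a scavenger receptor, was at 22.7, 16.1 and 22.2 CPM untreated and at 35.7, 50.6 and 48.5 CPM at 24 h (1.14 ± 0.18, edgeR adjusted p = 0.0948). Mertk, a receptor for dying cells, was at 9.30 to 14.3 CPM untreated and 20.6 to 27.8 CPM at 24 h, and Lyz2, a lysozyme of myeloid cells, at 298 to 529 CPM and 738 to 794 CPM. Relative to the untreated mean, the sum of the list was 1.22, 0.70 and 1.08 in untreated libraries 1, 2 and 3 and 1.5, 1.87 and 1.77 in 24 h libraries 2, 3 and 4. All treated sums were higher, and untreated library 2 was the lowest. In bulk tumour RNA, more cells of a type and more RNA per cell cannot be told apart. The pan-leukocyte gene Ptprc overlapped between groups, at 34.2, 9 and 12 CPM untreated and 19.7, 28.4 and 18.7 CPM at 24 h. Markers of lymphocytes were low, with 12 T cell markers summing to 7.94 to 11.6 CPM untreated and 13.0 to 17.4 CPM at 24 h, and NK and cytotoxic cell markers to at most 2.33 CPM.

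Lysosome genes and genes of cholesterol efflux were higher alongside. Of 36 lysosome genes 32 were higher and 4 lower, with a median of 0.39 (0.31 to 0.47 when each library was left out). Higher at an unadjusted p under 0.05 were 18, against 5.11% of all tested genes. Gusb (0.53 ± 0.11) and Ctsa (0.49 ± 0.11), both lysosomal enzymes, and Atp6v0d2, a proton pump subunit (1.04 ± 0.22), were higher without overlap. DESeq2 called 10 of the list higher, against 0.670% of all genes it tested. Of 14 genes of cholesterol efflux and lipid handling 12 were higher, with a median of 0.44. Among them 7 were higher at an unadjusted p under 0.05, against the same 5.11%. Abca1, which exports cholesterol from cells and is induced by sterol-activated LXR receptors, was at 54.6, 49.1 and 48.8 CPM untreated and at 84.1, 74.3 and 84.5 CPM at 24 h (0.67 ± 0.10, edgeR adjusted p = 0.0916). Apoe, its lipid acceptor, was at 490, 355 and 388 CPM untreated and at 643, 650 and 939 CPM at 24 h, highest in library 4. The lysosome list shares members with the macrophage list, such as Cd68, and with the lipid-associated macrophage list, such as Gpnmb and Atp6v0d2. Apoe is in both the efflux list and the lipid-associated macrophage list. The part of macrophage RNA in the values of these lists and of the cholesterol synthesis list was not tested.

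**Figure D4:**
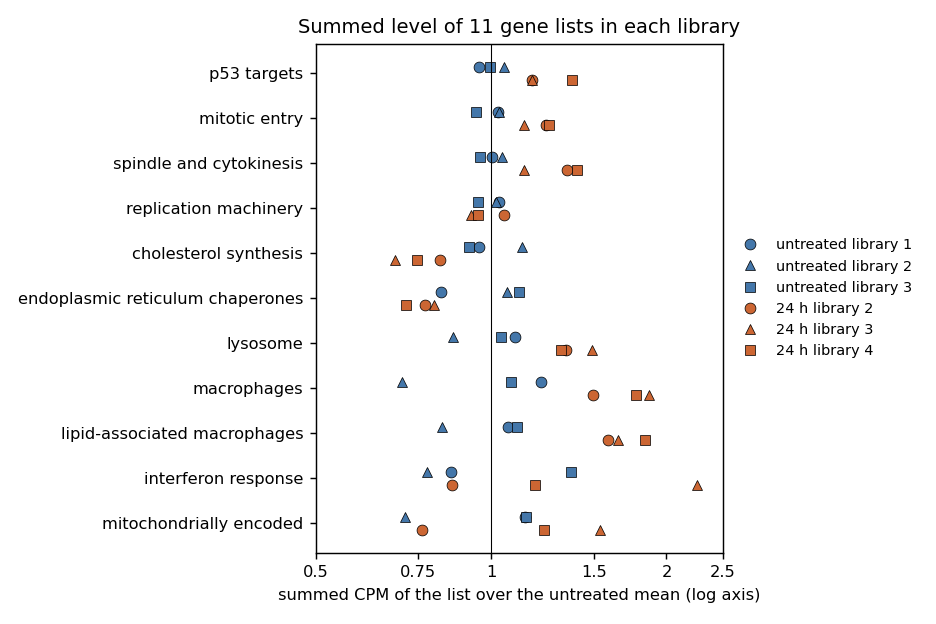
Summed CPM of 11 gene lists in each library, divided by the mean of the untreated libraries, on a log axis, with untreated libraries in blue, 24 h libraries in orange and the shape giving the order of the libraries within a group. The spindle, p53 target, lysosome and macrophage sums of all 24 h libraries lie above all untreated ones and the cholesterol synthesis sums below, whereas in the interferon list 24 h library 3 stands alone at 2.26 and 24 h library 2 at 0.86 lies among the untreated libraries.

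Schwann cell and glial markers were higher in 8 of 9 tested members (median 1.31, and 1.02 to 1.49 when each library was left out). Among them 6 were higher at an unadjusted p under 0.05, against 5.11% of all tested genes. With a filter at 5 CPM the median was 0.65 over the 4 members left. The sum of the list overlapped between groups, at 195, 198 and 183 CPM untreated and at 194, 221 and 279 CPM at 24 h. Sox10, the defining factor of this lineage, was at 1.79, 2.47 and 2.32 CPM untreated and at 5.98, 8.26 and 15.1 CPM at 24 h (2.14 ± 0.39, edgeR adjusted p = 0.151, DESeq2 adjusted p = 0.00404). It was highest in library 4 and did not overlap between groups, at a low level. Foxd3 and Cdh19, of neural crest and early glia, differed by 1.62 ± 0.52 and 1.10 ± 0.36.

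Interferon and antigen presentation genes varied with the libraries compared. Of 24 tested interferon response genes 23 were higher with a median of 0.83. However, 1 was higher at an unadjusted p under 0.05 and 2 lay above all untreated libraries. Both counts are near the shares over all tested genes, 5.11% and 7.75%. Without 24 h library 3, 14 were higher and 10 lower, with a median of 0.06. The median was 0.54 without untreated library 2 and 1.39 without untreated library 3, where 4 passed that p. Without 24 h library 2, 9 of 28 passed it. MHC class I genes were higher in 11 of 12 tested members with a median of 0.80, which was 0.18 without 24 h library 3 and 1.23 without 24 h library 2. The sum of the interferon list relative to the untreated mean was 0.85, 0.78 and 1.37 in untreated libraries and 0.86, 2.26 and 1.19 at 24 h. The highest sum was thus in 24 h library 3, which also had the most mitochondrial transcripts and the fewest erythroid ones, and untreated library 3 exceeded the other treated libraries. The sums of the marker lists beyond macrophages and T cells overlapped between the groups. Fibroblast markers had a median of -0.18, and 0.77 without untreated library 3. Adipocyte markers had a median of -1.27, and 0.96 without untreated library 3.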

How the data were processed

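RNA of tumours was sequenced after selection of polyadenylated molecules, per the labels' protocols. The authors deposited whole-number counts per Ensembl gene, 1 file per library, with no normalization. The submitters' processing notes name the build mm10 and, with no roles, HISAT2, edgeR and TopHat2 2.1.1. The counting program, its annotation and strand use, and the handling of multiply aligned reads were not given in the sources used here, which leaves near-identical and overlapping genes uncertain. Of 54446 identifiers, 54409 had a symbol in GENCODE M21, and the other 37 held at most 0.00412% of a library's counts.

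Tests on the 6 libraries used edgeR 4.0.16 in R 4.3.3. The filter was filterByExpr (minimum count 10, minimum total 15), which left 14283. Library sizes were scaled with TMM (factors 0.996 to 1.01). A robust quasi-likelihood fit with 1 mean per group gave F tests, Benjamini-Hochberg adjusted over all tested genes and called under 0.05. The common biological coefficient of variation was 16.5%. Levels are CPM on scaled library sizes, and the SE of a log2 fold change was derived from its F statistic. The test was tried on simulated data first. DESeq2 1.42.0 and limma 3.58.1 (voom) gave alternatives, as did other scaling, other filters, no robust estimation, fits with the 5-day libraries, the replicate number as a block, and each library left out in turn.

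Named genes were all called genes, the 15 higher and 15 lower with the smallest unadjusted p (mean of at least 5 CPM, no overlap), up to 4 members per list, and a fixed set (Mycn, Myc, Max, Aurka, Aurkb, Atr, Chek1, Cdkn1a, Mdm2, Th, Ptprc, Ddx3y and 1 more). Any other gene is marked as chosen with its values in view, and a few genes under this rule are not reported here. The 54 lists and their members were chosen with earlier results of these data known, so their counts are descriptions and no list was tested as a set. The lists overlap in some members. Promoters came from RefSeq (GRCm38.p6). Among tested genes 9806 had a window, and 5 of the 7 called genes did. Figures came from matplotlib 3.10.9 under Python 3.11.15.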

Additional observations from a re-analysis of the deposited data

How the results depend on the processing

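The count of 7 higher and 0 lower genes held with upper quartile or DESeq2 scaling factors and with the 5 CPM filter, and limma voom called 6 higher and 0 lower. DESeq2 called 92 higher and 22 lower, and edgeR without a filter on low counts 101 and 33. Without robust estimation 2 were called higher (Gpnmb and Sesn2), with the 9 libraries left when 5-day library 1 is dropped 2 (Cep55 and Pif1), and with all 10 libraries 0, none lower in these fits. The common biological coefficient of variation was 18.9% and 40.8% in the last fits, against 16.5%. Leaving out each library gave 0 to 16 higher and 0 to 1 lower. These fits have fewer samples.

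With the replicate number as a block, 161 were called higher, all 7 among them, and 117 lower, on 1 residual degree of freedom. The numbers 2 and 3 occur in both groups, and deviations from the group means correlated at 0.22 and 0.26 between same-numbered libraries and at -0.25 and -0.30 between libraries 2 and 3 of opposite groups. The other 5 pairs lay at -0.09 to 0.05. The labels do not say what a number stands for, so the samples are not treated as paired.

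Neat1 was not followed through the fits that leave out a library. Among the other genes named, directions turned when 1 library was left out for 4 genes. Their unadjusted p was 0.439 to 0.659 in all 6 libraries, and the cause was not tested. Over these fits the log2 fold change ranged from -0.18 to 0.54 for Th, -0.057 to 1.08 for Ptprc, -0.25 to 0.013 for Atr and -0.19 to 0.038 for Mycn. DESeq2 or upper quartile scaling factors turned the median of no list. Depth limits the low genes, since 0 counts allow up to 0.538 CPM in a library.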

Other observations

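Long noncoding transcripts had higher values at 24 h. Of 556 tested genes of the long noncoding classes 379 were higher and 177 lower. At an unadjusted p under 0.05, 47 were higher (8.45%) and 4 lower (0.719%). The median log2 fold change of these 556 genes was 0.17. Among them lincRNA genes held 0.522% to 0.579% of all CPM of tested genes in untreated libraries and 0.585%, 0.717% and 0.832% in 24 h libraries 2, 3 and 4. Library 2 was close to the untreated range and library 4 highest. Processed pseudogenes had the opposite balance, with 578 of 1479 higher and 901 lower and a median of -0.05. At an unadjusted p under 0.05, 14 were higher (0.947%) and 47 lower (3.18%), against 5.11% and 3.23% of all tested genes.

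The genes of this paragraph were chosen after their values were seen. Pnisr was at 109, 111 and 127 CPM untreated and at 151, 155 and 180 CPM at 24 h. Leng8 was at 97.3, 94.4 and 129 CPM untreated and at 166, 143 and 194 CPM at 24 h. Cirbp, a cold-inducible RNA-binding protein, was at 94.4, 63.0 and 72.1 CPM untreated and at 112, 145 and 132 CPM at 24 h. The nuclear RNA Miat was at 11.3, 13.2 and 15.2 CPM untreated and at 22.9, 21.5 and 39.5 CPM at 24 h. The groups of these 4 did not overlap. None passed in edgeR, and DESeq2 called them. Malat1 overlapped, at 122 to 173 CPM untreated and at 157, 320 and 403 CPM at 24 h. Neat1 overlapped too, at 17.6, 9 and 47.9 CPM untreated and at 20.1, 36.4 and 29.6 CPM at 24 h. Together they held 0.0139% to 0.0219% of counts untreated and 0.0177% to 0.0430% at 24 h.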
